A study of Mus musculus with 24 samples.

Results

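The complement and coagulation factors described here are 38 genes of plasma defence and blood clotting, taken by gene name from the tables of liver transcript levels. All 38 names were found, each under 1 gene identifier, among 43629 identifiers listed. All 38 also passed the filter of a mean of at least 1 TPM (a read share per transcript length, scaled to a sum of 1000000 in each library), which kept 12261 genes. The samples were whole livers of wild-type C57BL/6 mice, an inbred strain, and no group carried a mutation or a treatment. Old mice were about 19 months of age and young mice about 4 months. Livers of each age were collected at ZT2, ZT6, ZT10, ZT14, ZT18 and ZT22, where ZT (zeitgeber time) counts hours from the start of the light phase. Each age and time had 2 replicate libraries, 12 libraries per age and 24 in all. Sex is not in the labels, nor whether the replicates are separate mice or what the replicate number marks, so every p here measures the spread between these libraries.

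Complement is a chain of plasma proteases and binding proteins that marks particles for uptake and ends in a pore through membranes. Coagulation is a second protease chain that ends with thrombin cutting fibrinogen into fibrin, and plasmin later dissolves the clot. Hepatocytes make most of the soluble proteins of both chains, and the fibrinogen chains and several complement factors are known as acute phase genes, whose transcripts rise in the liver during inflammation.

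Each library held between 8.70 and 13.7 M mapped reads of 50 bases, with a median of 10.5 M, worked out from the deposited coverage. Levels are given as scaled TPM, the deposited TPM divided by a factor per library (0.817 to 1.23) that evens out composition. The 7 hepatocyte markers, with albumin among them, summed to between 75687 and 102851 scaled TPM in old libraries (median 83584) and between 70974 and 101008 in young (median 95151). Platelet and megakaryocyte markers summed to at most 9.92 scaled TPM in old and 4.65 in young libraries, and Gp1ba among them was listed at 0 in all 24. 4 libraries stood apart. Replicate 1 of old ZT10 had the highest summed level of 20 acute phase genes, and both libraries of old ZT14 held little mitochondrially encoded RNA, 3.42% and 8.74% of TPM against 10.7% to 17.1% in the others. Replicate 2 of young ZT18 held pancreatic acinar transcripts, whose 5 markers summed to 2589 scaled TPM there. These are whole livers, where fewer cells of a type and less RNA per cell cannot be told apart.

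The members were abundant transcripts. Together they made up 1.62% to 2.94% of all TPM in old libraries (median 2.35%) and 1.43% to 2.58% in young (median 1.97%). The 3 fibrinogen chains alone took 28.1% to 52.5% of that sum in old libraries (median 38.9%) and 29.0% to 45.4% in young (median 37.1%). Fgg ranked 46th, Fga 54th and Fgb 68th in mean level among all genes listed. At the low end stood F11 at a mean of 39.5 scaled TPM over the 24 libraries, Masp1 at 32.0 and Pros1 at 27.8.

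**Figure D1:**
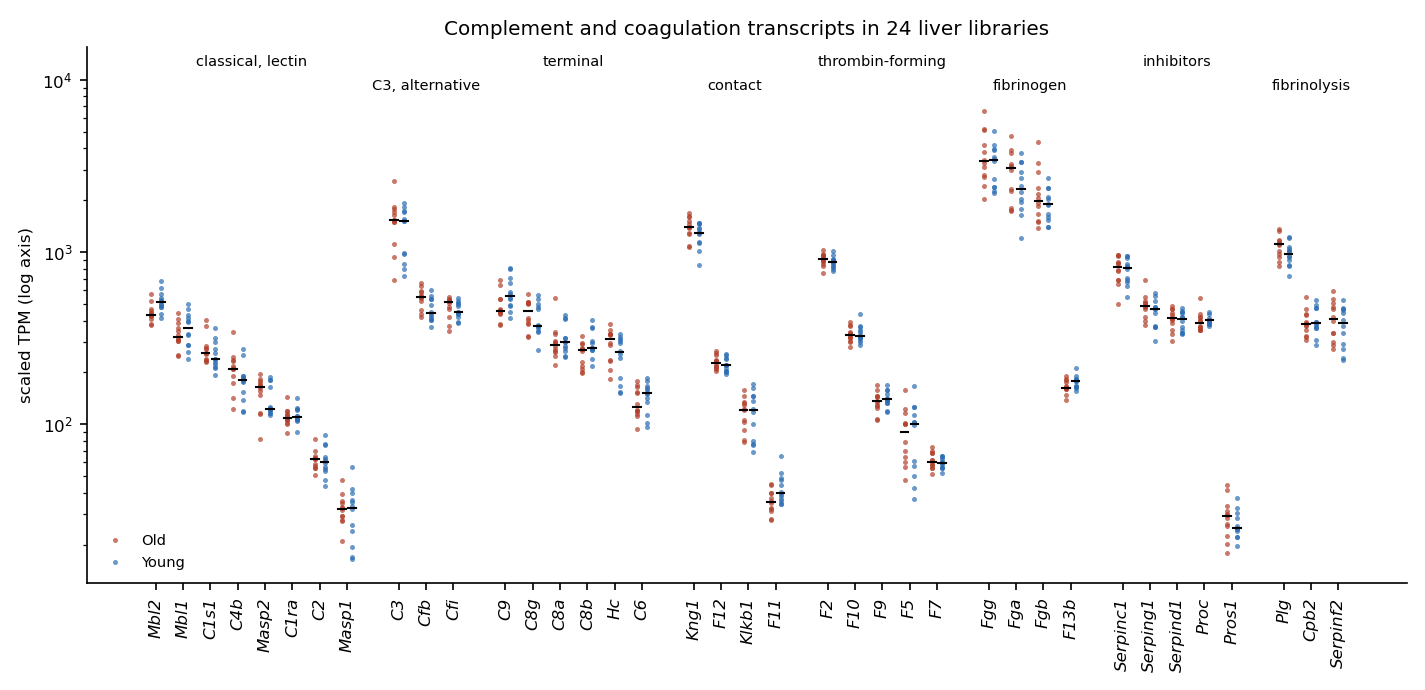
Scaled TPM (log axis) of the 38 members in each of 24 liver libraries, grouped by role, with 12 old libraries left of 12 young ones for each gene. Points are libraries and black bars are medians; the old and young clouds overlap for every gene, and the medians of the 3 fibrinogen chains stand above the rest.

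The first comparison asked which of these transcripts differ between old and young liver when the 6 times are averaged. No member rose or fell with age at the threshold used throughout, a Benjamini-Hochberg adjusted p under 0.05 over all 12261 genes in limma. Of all tested genes, 1.14% were called higher and 0.498% lower in old liver, 140 and 61 genes (225 and 38 without scaling of TPM). At an unadjusted p under 0.05, limma picked 3 of the 38 members (7.89%), all lower in old liver, against 11.6% of all tested genes. These 3 were F11 (coagulation factor XI, which activates factor IX), C9 (which polymerizes into the membrane pore) and Mbl2 (a mannose-binding lectin that recognizes microbial sugars). By sign alone, 25 members (65.8%) were higher and 13 lower in old liver, against 47.0% of all tested genes higher. The median log2 difference of the members was 0.05 against -0.01 over all tested genes, and theirs ranged from -0.26 to 0.25. The members' split by sign was 34 to 4 without scaling. There the median of all tested genes itself lay at 0.09, and 26 members lay above that median.

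**Figure D2:**
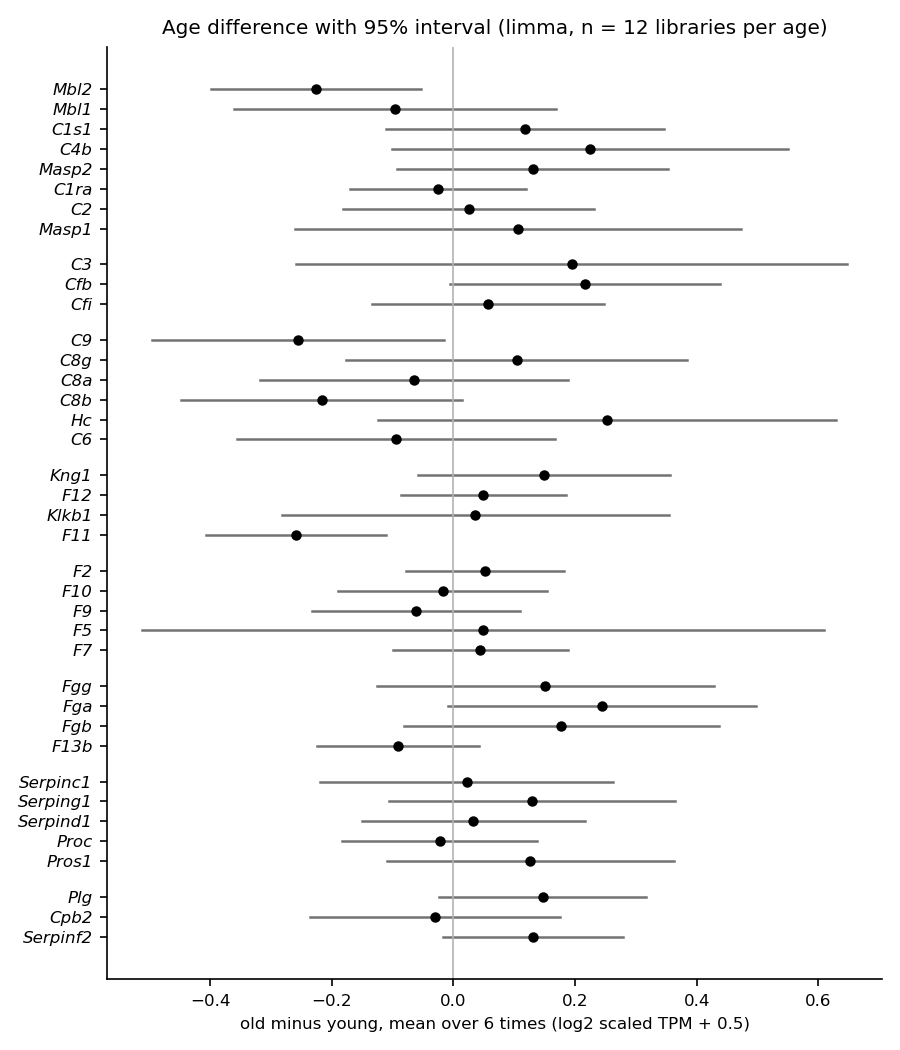
Log2 difference between old and young liver (mean over 6 times, log2 of scaled TPM + 0.5) for the 38 members, in the same order of roles. Dots are limma estimates and lines are 95% intervals (12 libraries per age); the estimates lie between -0.26 and 0.25, and the intervals of F11, C9 and Mbl2 lie below 0.

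F11 came closest to the threshold. In old livers its level was 39.7 and 40.0 at ZT2, 44.9 and 44.2 at ZT6, 36.1 and 37.5 at ZT10, 32.7 and 28.3 at ZT14, 32.1 and 27.8 at ZT18, 34.7 and 31.4 at ZT22 scaled TPM (replicates 1 and 2). In young livers it was 48.5 and 39.5 at ZT2, 47.6 and 52.2 at ZT6, 65.6 and 44.7 at ZT10, 37.0 and 38.4 at ZT14, 34.4 and 40.1 at ZT18, 34.5 and 36.0 at ZT22. Both old libraries lay below both young ones at ZT6, ZT10, ZT14 and ZT18, and the ranges overlapped at ZT2 and ZT22. F11 averaged 35.8 ± 5.68 scaled TPM in old and 43.2 ± 9.17 in young livers (SD, n = 12 each), a log2 difference of -0.26 (95% interval -0.41 to -0.11, limma adjusted p = 0.0856). The mean was lower in old liver at 6 of 6 times. Here and below, the share of all tested genes with the same sign at 6 of 6 times was not worked out. Without replicate 2 of young ZT10 the difference was -0.30 and passed the threshold (adjusted p = 0.0232).

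At single times, limma called no member at any of the 6 times. The share of all tested genes called was 0% at ZT2, 0% at ZT6, 0.53% at ZT10, 0.0408% at ZT14, 0.0245% at ZT18 and 0.00816% at ZT22. At an unadjusted p under 0.05, 5 members (13.2%) were picked at ZT10, where 7.92% of all genes were, and 0 members at each other time. For those other times the share of all genes at that level was 4% at ZT2, 4.04% at ZT6, 7.87% at ZT14, 4.63% at ZT18 and 3.04% at ZT22. No member passed limma's test of an age difference that varies over the times (adjusted or unadjusted), against 0.0163% of all genes adjusted and 3.6% unadjusted.

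The second comparison asked which members follow a 24 h rhythm, from a cosine and a sine fitted to each age. Amplitude below means how far the fitted peak stands above the fitted trough, in log2 units. Over both ages, 7 of 38 members (18.4%) were rhythmic by limma: the fibrinogen chains Fga, Fgb and Fgg, the plasmin inhibitor Serpinf2, F11, plasminogen (Plg) and protein S (Pros1). Of all tested genes 23.9% were rhythmic, so the share of rhythmic members was no higher than that of liver transcripts at large. The median amplitude was 0.31 over the members and 0.36 over all tested genes. Tested on its own, old liver had 5 rhythmic members (Fga, Fgb, Serpinf2, F11 and Pros1), against 8.96% of all genes, and young liver had 3 (Fga, Serpinf2 and F11), against 10.7%. No member passed limma's test of a rhythm difference between the ages, at an adjusted p (0% of all genes) or an unadjusted one (3.51% of all genes). A member called at 1 age and not at the other is therefore not shown to differ.

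The 7 calls over both ages held in each of the 24 fits that left out 1 library. The counts within an age moved more. Old liver had 3 rhythmic members without replicate 1 of old ZT6 or without replicate 2 of old ZT14, and 2 without replicate 1 of old ZT18. Young liver had 5 without replicate 2 of young ZT22 or without replicate 1 of old ZT10. Leaving out replicate 1 of old ZT14 together with replicate 2 of young ZT18 left 7 over both ages, 4 in old and 3 in young liver.

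**Figure D3:**
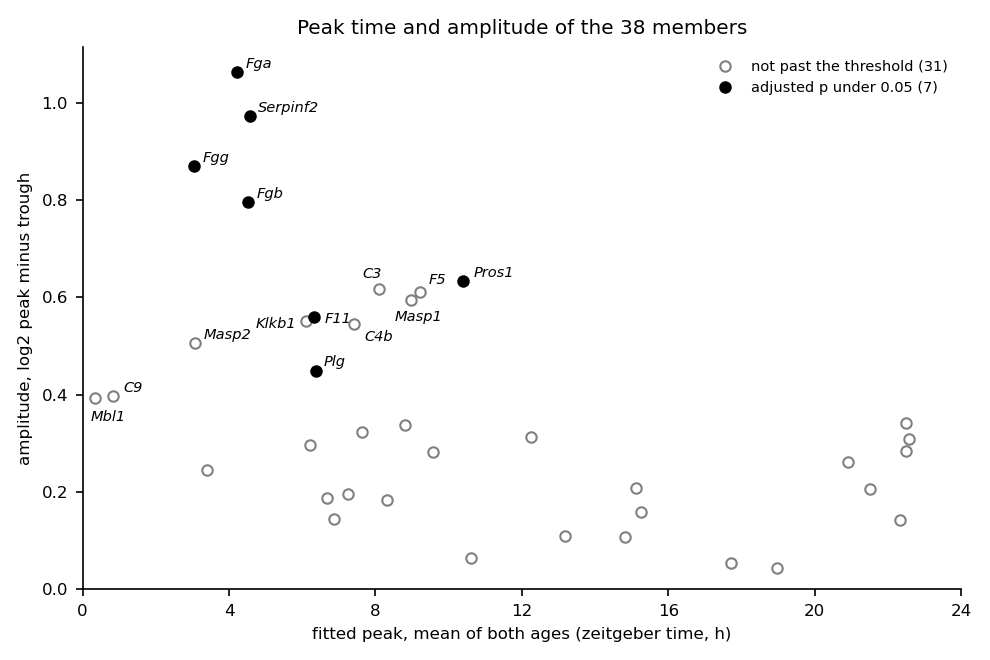
Fitted peak time (zeitgeber time in h) against amplitude (log2 peak minus trough), both over the mean of the ages, for the 38 members. Filled points passed limma's adjusted threshold and open points did not; the 7 filled points peak between ZT3.06 and ZT10.4 with amplitudes of 0.45 to 1.06.

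Fibrinogen is the protein that thrombin turns into fibrin, and each molecule is built from chains encoded by Fga, Fgb and Fgg. The 3 genes lie within 1 cluster on chromosome 3 of GRCm38, Fgg at 83007724 to 83015049 (+ strand), Fga at 83026076 to 83033627 (+) and Fgb at 83040141 to 83049863 (- strand). Their promoters are shown because these chains have the highest levels among the members, were all called rhythmic and carry the ZT10 values described next. The windows are from RefSeq (GRCm38.p6), 250 bases before to 50 after the annotated start, read 5′ to 3′ on the gene's strand at chr3:83025903-83026202 (Fga, +), chr3:83049814-83050113 (Fgb, -) and chr3:83007474-83007773 (Fgg, +). Capitals mark matches, on either strand, to 7 motifs described after the sequences.
Fga: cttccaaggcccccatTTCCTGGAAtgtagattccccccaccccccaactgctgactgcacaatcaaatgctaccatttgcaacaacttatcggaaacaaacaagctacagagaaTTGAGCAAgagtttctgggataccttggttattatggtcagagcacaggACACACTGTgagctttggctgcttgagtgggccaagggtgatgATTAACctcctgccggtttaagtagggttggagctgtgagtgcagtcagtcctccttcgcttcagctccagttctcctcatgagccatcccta
Fgb: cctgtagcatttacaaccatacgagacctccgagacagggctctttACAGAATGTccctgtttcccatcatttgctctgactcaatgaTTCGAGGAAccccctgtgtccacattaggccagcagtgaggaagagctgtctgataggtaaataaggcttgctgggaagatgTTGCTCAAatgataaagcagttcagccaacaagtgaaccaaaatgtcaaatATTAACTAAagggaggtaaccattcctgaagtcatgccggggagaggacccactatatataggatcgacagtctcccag
Fgg: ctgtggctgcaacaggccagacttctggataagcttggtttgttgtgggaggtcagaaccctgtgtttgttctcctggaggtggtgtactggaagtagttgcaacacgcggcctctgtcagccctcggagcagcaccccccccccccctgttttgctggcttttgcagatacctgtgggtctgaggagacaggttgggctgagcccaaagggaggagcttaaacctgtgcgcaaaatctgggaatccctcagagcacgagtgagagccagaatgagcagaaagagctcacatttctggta
The Fga window holds matches to the STAT motif TTCNNNGAA at -234 (first base, counted from the start at +1), the C/EBP motif TTGCNNAA at -135, the glucocorticoid receptor motif ACANNNTGT at -86 and the HNF1 motif GTTAAT at -43. The Fgb window holds the glucocorticoid motif at -204, STAT at -162, C/EBP at -80 and HNF1 at -29, and the last overlaps a D-box TTANNTAA at -28. The Fgg window holds none of these 7 motifs, which says only that these letters are not in this window.

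Of the 38 members, 29 had a promoter in the RefSeq table. Among those 29 genes, 7 held the STAT motif, 11 C/EBP, 8 HNF1 and 2 the HNF4 motif CAAAGTNCA. Of the same 29, 5 held the D-box, 5 the glucocorticoid motif and 0 the E-box CACGTG. The 29 genes had 31 windows, of which 22.6% held STAT, 35.5% C/EBP, 25.8% HNF1, 6.45% HNF4, 16.1% the D-box and 16.1% the glucocorticoid motif. Of all 32851 windows of the same length in the table, 8.30% held STAT, 10.8% C/EBP, 7.10% HNF1, 1.41% HNF4, 6.00% the D-box, 6.85% the glucocorticoid motif and 7.15% the E-box. These matches describe letters in the windows only.

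At both ages the mean levels of all 3 fibrinogen chains at ZT2 and ZT6 stood above the mean of the day, and those at ZT14 below it. In old livers Fga was at 3895 and 3227 at ZT2, 3768 and 2996 at ZT6, 4712 and 3113 at ZT10, 1742 and 1809.6 at ZT14, 1720.4 and 2250.1 at ZT18, 2327 and 3156 at ZT22 scaled TPM. In young livers it was at 3328 and 3353 at ZT2, 2405 and 3745 at ZT6, 2695 and 2227 at ZT10, 1202 and 1769.5 at ZT14, 1639.5 and 2043 at ZT18, 1955 and 2909.9 at ZT22. Every library of ZT14 and ZT18 lay below every library of ZT2 within each age. The fitted peak fell at ZT4.94 in old and ZT3.53 in young liver, with amplitudes of 1.05 and 1.11 in old and young, so that peak levels were about 2.08-fold the trough in old and 2.16-fold in young. Over both ages the amplitude was 1.06 (limma adjusted p = 0.000344), the largest among the 38 members. The call in old liver was lost without replicate 1 of ZT18 or replicate 2 of ZT14 (adjusted p = 0.0686 and 0.0504), and that in young liver without replicate 1 of ZT14 (0.0510). In old liver it was also lost with unscaled TPM (0.0581) and without replicate 1 of old ZT14 together with replicate 2 of young ZT18 (0.0519).

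Fgb encodes the beta chain. Its levels in old livers were 2909 and 1927 at ZT2, 3275 and 2348 at ZT6, 4326 and 2051 at ZT10, 1661 and 1378 at ZT14, 1493 and 1513 at ZT18, 2181 and 1861 at ZT22 scaled TPM. Young livers had 2706 and 2085 at ZT2, 2357 and 2360.5 at ZT6, 1660.0 and 1538 at ZT10, 1606 and 1399.9 at ZT14, 1886 and 1404 at ZT18, 2035 and 1890.4 at ZT22. The highest value was replicate 1 of old ZT10. Fitted peaks were at ZT5.82 in old and ZT2.73 in young liver, with amplitudes of 0.99 and 0.73 in old and young (adjusted p = 0.0214 in old, 0.102 in young) and a limma adjusted p of 0.00382 over both ages. The call in old liver was lost without replicate 1 of ZT6 or of ZT18 (adjusted p = 0.0752 and 0.0558).

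Fgg encodes the gamma chain and was the most abundant member. Its levels in old livers were 5131 and 3409 at ZT2, 5146 and 3807 at ZT6, 6629.6 and 3102 at ZT10, 2414 and 2033 at ZT14, 2709.8 and 2796 at ZT18, 4159.5 and 3304 at ZT22 scaled TPM. For young livers the values were 5054 and 3574 at ZT2, 4194 and 3908 at ZT6, 2387 and 2272 at ZT10, 2652 and 2193 at ZT14, 3451 and 2371 at ZT18, 3958 and 3394 at ZT22. As for Fgb, replicate 1 of old ZT10 stood highest, while both young ZT10 libraries were among the lowest of their age. The fitted peak was at ZT4.48 in old and ZT1.64 in young liver, with amplitudes of 0.93 at both ages (limma adjusted p = 0.0604 in old, 0.0534 in young, 0.00439 over both). Peaks of all 3 chains were later in old liver, by 1.41 h for Fga, 2.84 h for Fgg and 3.09 h for Fgb, but the test of a rhythm difference gave unadjusted p values of 0.517, 0.201 and 0.113 in limma, and times were sampled every 4 h.

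**Figure D4:**
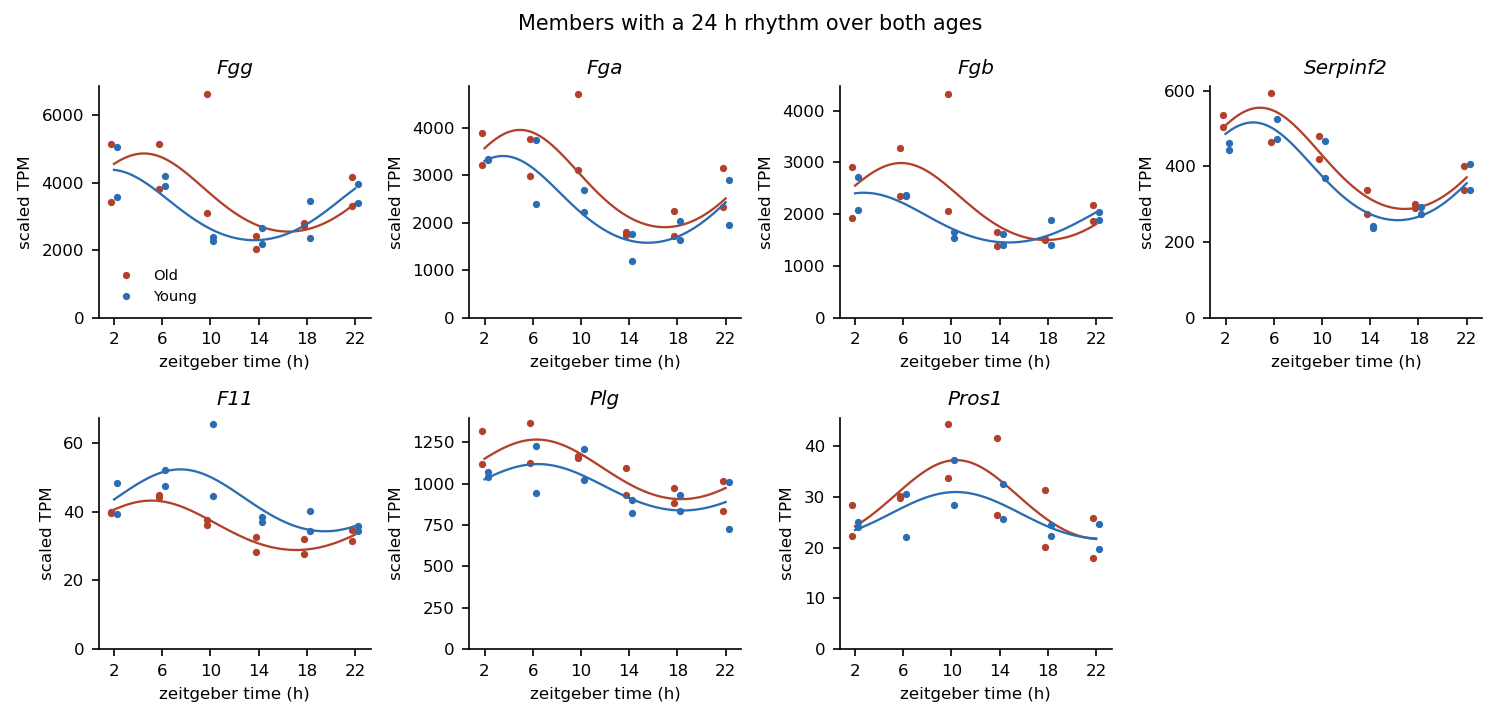
Scaled TPM by zeitgeber time (h) for the 7 members called rhythmic over both ages, old in red and young in blue. Points are single libraries (2 per age and time, old drawn left of young) and curves are the 24 h fits; the means of the fibrinogen chains and Serpinf2 lie above the mean of the day at ZT2 and ZT6 and below it at ZT14.

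At ZT10 the fibrinogen chains had higher means in old liver, and none passed the adjusted threshold. Fgg had 6629.6 and 3102 scaled TPM in old against 2387 and 2272 in young ZT10 libraries (log2 difference 0.96, limma adjusted p = 0.309). Fgb differed by 0.90 (adjusted p = 0.308) and Fga by 0.64 (adjusted p = 0.602). Cpb2, a carboxypeptidase that slows fibrinolysis, had 549 and 393 in old against 289 and 309.6 in young libraries, a difference of 0.63 (adjusted p = 0.411). F11 went the other way, with 36.1 and 37.5 in old against 65.6 and 44.7 in young libraries (-0.55, adjusted p = 0.247). These 5 genes are the ones picked at an unadjusted p under 0.05 at this time. Without replicate 1 of old ZT10 the differences were 0.41 for Fgg, 0.36 for Fgb, 0.35 for Fga and 0.39 for Cpb2, and without replicate 2 of old ZT10 they were 1.51, 1.44, 0.94 and 0.88 in that order. F11 was at -0.28 without replicate 1 of young ZT10 and at -0.83 without replicate 2 of young ZT10.

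Saa2 and Hp, from a list of 20 acute phase genes, are set beside the fibrinogen values at ZT10. Single values of the rest of the list at ZT10 are not given here, so Saa2 and Hp do not stand for it. Saa2, a serum amyloid A gene, was at 8234 and 1077 scaled TPM in the old ZT10 libraries and at 34.2 and 30.96 in the young ones. Hp (haptoglobin, which binds free haemoglobin) was at 6043 and 4435 in old and 2179 and 1863 in young ZT10 libraries. Over all 6 times, the 20 acute phase genes summed to between 13094 and 48531 scaled TPM in old libraries (median 17894). In young libraries they summed to between 11596 and 17934 (median 13020). By sign over the day, 19 of the 20 were higher in old liver, against 47.0% of all tested genes. Plasma cell markers, also over all times, summed to 116 to 641 in old libraries (median 160.4) and 11.4 to 57.6 in young (median 30.5). Of 7 Kupffer cell markers, 6 were higher in old liver by sign. Their sum was 262 to 729 in old (median 344) and 248.6 to 365 in young (median 303). Of 6 sinusoidal endothelium markers 2 were higher in old liver by sign, and of 4 tested stellate cell and fibroblast markers 2. Neutrophil markers summed to 2.71 to 125 in old libraries (median 28.0) and 3.48 to 22.7 in young (median 9.13), with Ly6g listed at 0 throughout. The part of these genes and cells in the fibrinogen values was not tested. Over the day, Fga differed between old and young by log2 0.24 (95% interval -0.01 to 0.50), Fgb by 0.18 (-0.08 to 0.44) and Fgg by 0.15 (-0.13 to 0.43), and without the ZT10 libraries Fgg was at -0.011. F13b, the carrier subunit of the factor that cross-links fibrin, was at 166 ± 14.6 in old and 177 ± 14.9 in young livers (SD, n = 12 each) and had an amplitude of 0.05.

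Fibrinolysis was represented by plasminogen, Cpb2 and Serpinf2, which encodes alpha2-antiplasmin, the main inhibitor of plasmin. Serpinf2 (chromosome 11, 75431732 to 75439591, - strand) had the smallest adjusted p for a rhythm over both ages among the members (1.35e-06, limma). Old livers had 535 and 505 at ZT2, 594 and 464 at ZT6, 479 and 420.3 at ZT10, 337 and 275 at ZT14, 300.0 and 290.1 at ZT18, 337 and 399.6 at ZT22 scaled TPM. Young livers held 461 and 444 at ZT2, 473 and 524 at ZT6, 466 and 370.0 at ZT10, 236 and 242 at ZT14, 275 and 294 at ZT18, 337 and 405 at ZT22. At both ages every library of ZT2, ZT6 and ZT10 exceeded every library of ZT14 and ZT18. Fitted peaks were at ZT4.86 in old and ZT4.29 in young liver with amplitudes of 0.949 and 1.001 in old and young (limma adjusted p = 0.000403 in old, 0.000252 in young).

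Plasminogen is the precursor of plasmin. Plg (chromosome 17, 12378609 to 12419384, + strand) was at 1318 and 1118 at ZT2, 1367 and 1127 at ZT6, 1167 and 1155 at ZT10, 1094 and 932 at ZT14, 879.8 and 975 at ZT18, 833 and 1017 at ZT22 scaled TPM in old livers. Its values in young livers were 1041 and 1071 at ZT2, 943 and 1228 at ZT6, 1207 and 1019 at ZT10, 824 and 899.9 at ZT14, 835 and 930.4 at ZT18, 726 and 1010.3 at ZT22. The means were higher in old liver at 6 of 6 times, and both old libraries lay above both young ones at ZT2 and ZT14, yet the difference of 0.15 over the day did not pass (95% interval -0.02 to 0.32, limma adjusted p = 0.529). Its rhythm was shallow, with fitted peaks at ZT6.32 in old and ZT6.42 in young liver and an amplitude of 0.45 over both ages (adjusted p = 0.00789). Cpb2 did not pass the test of a rhythm over both ages (amplitude 0.14, adjusted p = 0.718).

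In the contact system, the surface-triggered start of clotting, F11 (chromosome 8, 45241170 to 45262031, - strand) was rhythmic at both ages, with fitted peaks at ZT5.11 in old and ZT7.50 in young liver and amplitudes of 0.58 and 0.60 in old and young (limma adjusted p = 0.0178 in old, 0.0121 in young). In young liver that call was lost without the ZT10 libraries (amplitude 0.49, adjusted p = 0.0669), and in old liver without either ZT6 library or replicate 2 of ZT18 (0.55 to 0.56, adjusted p = 0.0502 to 0.0602). With unscaled TPM the call in old liver was lost too (adjusted p = 0.105). Kng1, which encodes kininogen, the carrier of prekallikrein and factor XI and the source of bradykinin, was the most abundant of the 4. Kng1 was at 1618 and 1268 at ZT2, 1512 and 1372 at ZT6, 1593 and 1695 at ZT10, 1392 and 1450.0 at ZT14, 1084 and 1389.6 at ZT18, 1067 and 1287 at ZT22 scaled TPM in old livers. In young livers it was at 1279 and 1357 at ZT2, 1133 and 1473 at ZT6, 1369 and 1288 at ZT10, 1138 and 1458 at ZT14, 1012 and 1464 at ZT18, 846 and 1302 at ZT22. Its mean was higher in old liver at 6 of 6 times, by 0.15 over the day, which did not pass (95% interval -0.06 to 0.36, limma adjusted p = 0.635). Outside the contact system, Fga, Serping1, Plg, Cfb and Hc were also higher in old liver at 6 of 6 times. Reads of Kng1 may be shared with its near-identical copy Kng2, so the split between them is uncertain. F12, the factor that starts the contact pathway, varied little (230 ± 20.9 in old, 222 ± 20.5 in young livers, SD, n = 12 each). Klkb1, plasma prekallikrein, averaged 117 in each age and reached an unadjusted rhythm only.

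Among the factors that form thrombin, F2 (prothrombin) was the most abundant. Old livers had 1032 and 959 at ZT2, 950.4 and 848 at ZT6, 892 and 970.4 at ZT10, 951 and 911 at ZT14, 828 and 889 at ZT18, 759 and 901 at ZT22 scaled TPM of F2. Young livers had 904 and 896 at ZT2, 832 and 957 at ZT6, 1012 and 878 at ZT10, 797 and 849 at ZT14, 817 and 878 at ZT18, 774 and 910.2 at ZT22 scaled TPM. The ages overlapped, with means of 908 ± 72.7 in old and 875 ± 67.4 in young livers (SD, n = 12 each), and the age difference was 0.05 (95% interval -0.08 to 0.18). F10, F9 and F7, vitamin K-dependent protease precursors like F2, had age differences of -0.02, -0.06 and 0.04 and amplitudes of 0.04, 0.21 and 0.16. F5, the cofactor of factor X in making thrombin, had the widest interval of all members, -0.51 to 0.61 around 0.05. No member of this group passed a test of age or rhythm.

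Of the coagulation and contact inhibitors, Pros1 alone was called rhythmic. Pros1 (chromosome 16, 62854307 to 62929346, + strand) encodes protein S, the cofactor of activated protein C. It was at 28.4 and 22.4 at ZT2, 29.8 and 30.1 at ZT6, 33.7 and 44.3 at ZT10, 26.4 and 41.5 at ZT14, 20.2 and 31.4 at ZT18, 17.9 and 25.8 at ZT22 scaled TPM in old livers. Young livers were at 25.1 and 23.98 at ZT2, 22.03 and 30.6 at ZT6, 37.2 and 28.4 at ZT10, 25.7 and 32.5 at ZT14, 22.2 and 24.5 at ZT18, 19.7 and 24.6 at ZT22. The fitted peak was at ZT10.4 in each age, later than that of the fibrinogen chains, with amplitudes of 0.77 in old and 0.50 in young liver (limma adjusted p = 0.0362 in old, 0.216 in young, 0.00568 over both). Without the ZT10 libraries the rhythm over both ages did not pass (0.55, adjusted p = 0.111), and the call in old liver was lost in 6 of the 24 fits without 1 library, those without either old ZT10 library, replicate 1 of old ZT18 or ZT22, or replicate 2 of old ZT2 or ZT14 (0.65 to 0.83). That call was also lost with unscaled TPM (adjusted p = 0.0591), quantile normalization (0.0614) and no filter (0.0522), and without the ZT10 libraries (0.262), so it held in 6 of 10 other settings.

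Antithrombin, encoded by Serpinc1, inhibits thrombin and factor X and was the most abundant inhibitor. Serpinc1 was at 849 and 956 at ZT2, 773 and 648 at ZT6, 868 and 947 at ZT10, 785 and 876 at ZT14, 500.2 and 955 at ZT18, 684 and 687 at ZT22 scaled TPM in old livers. Young livers showed 821 and 928 at ZT2, 548 and 944 at ZT6, 825 and 851 at ZT10, 686 and 794 at ZT14, 706 and 639 at ZT18, 671 and 945 at ZT22. The ages overlapped widely, and the difference of 0.02 (95% interval -0.22 to 0.26) turned to -0.044 without replicate 1 of young ZT6, -0.020 without replicate 1 of young ZT22 and -0.056 without replicate 2 of old ZT18. Serping1 (C1 inhibitor, which also blocks the contact proteases), Serpind1 (heparin cofactor II) and Proc (protein C) differed between the ages by 0.13, 0.03 and -0.02, and none was called rhythmic.

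Within complement, no member passed the adjusted threshold in the comparisons of age or rhythm described so far, which hold no term for replicate number. C3, on which all 3 activation routes converge, was the most abundant complement transcript. In old livers C3 was at 1493 and 1777 at ZT2, 1535 and 1638 at ZT6, 1491 and 2588 at ZT10, 1107 and 1821 at ZT14, 939.6 and 1699 at ZT18, 691 and 1529.5 at ZT22 scaled TPM. Young livers gave 989.5 and 1723 at ZT2, 974 and 1823 at ZT6, 1937 and 1563 at ZT10, 793 and 1508 at ZT14, 847 and 1508 at ZT18, 724 and 1717 at ZT22 scaled TPM. Replicate 2 exceeded replicate 1 in 11 of the 12 groups, and the age difference was 0.19 (95% interval -0.26 to 0.65). Cfb, the protease precursor of the alternative pathway, averaged 543 ± 74.4 in old and 468 ± 74.2 in young livers (SD, n = 12 each) and was higher in old at 6 of 6 times, at log2 0.22 (95% interval -0.01 to 0.44, limma adjusted p = 0.443). Cfi, the protease that inactivates C3b and C4b, differed by 0.06.

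Mbl2 was the most abundant of the classical and lectin pathway genes. In old livers it stood at 383 and 375 at ZT2, 430.2 and 464 at ZT6, 571 and 428 at ZT10, 455 and 441 at ZT14, 406 and 517 at ZT18, 427 and 437 at ZT22 scaled TPM. In young livers it stood at 413 and 544 at ZT2, 527 and 499.7 at ZT6, 434 and 478 at ZT10, 618 and 520.1 at ZT14, 679 and 491 at ZT18, 572 and 478 at ZT22. Both old libraries lay below both young ones at ZT2, ZT6, ZT14 and ZT22. Its mean was 444 ± 54.5 in old and 521 ± 74.9 in young livers (SD, n = 12 each), a log2 difference of -0.23 (95% interval -0.40 to -0.05, limma adjusted p = 0.233). The other lectin, Mbl1, differed by -0.10, and the lectin-associated proteases Masp1 and Masp2 by 0.11 and 0.13. C1s1 and C1ra, proteases of the first component, differed by 0.12 and -0.025, C2 by 0.03 and C4b by 0.22. C1ra and C4b have near-identical copies, and C1rb ranged from 0 to 53.9 in old libraries (median 0) and from 0 to 63.5 in young (median 44.1), so values of C1ra and C4b may depend on how reads were split.

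In the terminal pathway, which builds the membrane pore, C9 was the most abundant. C9 was at 690.1 and 381 at ZT2, 643 and 532 at ZT6, 464 and 379 at ZT10, 441 and 451 at ZT14, 434 and 457 at ZT18, 535 and 458 at ZT22 scaled TPM in old livers. It was at 806 and 585 at ZT2, 664 and 541 at ZT6, 413 and 446 at ZT10, 573 and 493 at ZT14, 704 and 535 at ZT18, 796 and 484 at ZT22 in young livers. The means were lower in old liver at 6 of 6 times, with overlap at 4 of them, and the difference of -0.26 did not pass (95% interval -0.50 to -0.01, limma adjusted p = 0.390). C8b, a chain of the component that anchors the pore in the membrane, was also lower at 6 of 6 times (-0.22, adjusted p = 0.468), while Hc, which encodes C5, was higher at 6 of 6 (0.25, 95% interval -0.12 to 0.63, adjusted p = 0.677). C6 and the other C8 chains, C8a and C8g, differed by -0.09, -0.07 and 0.10.

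The spread between the replicates of a group was itself uneven across members, and it ran with transcript length, a pattern noticed after the values were seen. F5, whose transcript of 7430 bases is the longest among the members, was at 114 scaled TPM on average in replicate 2 and 65.9 in replicate 1 libraries (n = 12 each, old and young pooled). The mean log2 difference of replicate 2 over replicate 1 was 0.88 for F5, 0.69 for C3 (5136 bases), 0.52 for Hc (5445 bases) and 0.40 for C4b (5379 bases). It was -0.41 for C8g (1150 bases), -0.34 for Mbl1 (1563 bases) and -0.36 for Fgg (1741 bases). Young ZT10 ran the other way in several members, at -0.40 for F5, -0.31 for C3 and 0.37 for C8g. Not every member reversed there. Fgg kept its sign at -0.07, and Masp2 (3058 bases) was at 0.57 in young ZT10 and 0.19 in the mean of the other groups. In the mean over the groups some members went against length. Fgb (3810 bases) was at -0.32, C8a (3617 bases) at -0.16 and Serping1 (1768 bases) at 0.30. Mbl2, the shortest at 1089 bases, was at -0.04. Across the 38 members, Spearman's rho between transcript length and the mean difference was 0.63, and -0.47 for young ZT10 alone. Across 12189 tested genes with a length in GENCODE it was 0.57, and -0.31 for young ZT10, so the members share the relation with tested genes at large. Genes of a library share its depth and RNA, and no test was made. What the replicate number marks is not in the labels. Fits with replicate number as a term moved several counts of calls, and their values stand with the other processing alternatives.

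**Figure D5:**
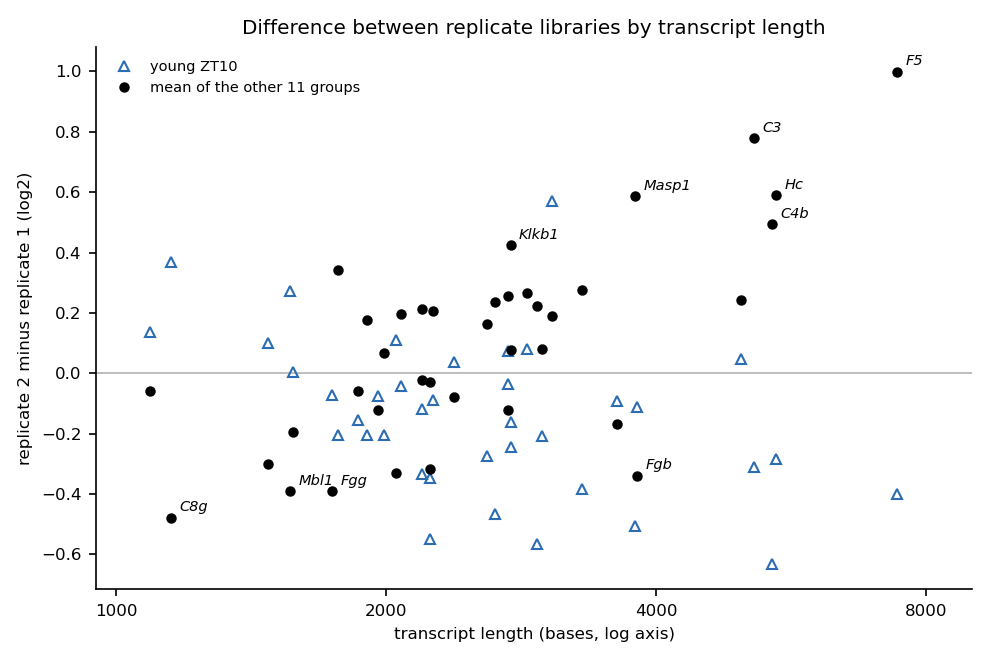
Log2 difference between replicate 2 and replicate 1 against transcript length (bases, log axis) for the 38 members. Black points are the mean of 11 groups and open blue triangles are young ZT10; among the black points C8g is lowest at -0.48 and F5 highest, and the triangles of F5, Hc, C4b and C3 lie below 0.

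Deviations of the 24 libraries from their group means showed which members varied together (a description, since the 2 libraries of a group mirror each other and all genes share library and scaling). Fgb and Fgg were the most alike of all 703 pairs, with a Pearson r of 0.99, against a median of 0.17. Fga, which lies between them on the chromosome, followed them less (0.26 with Fgb and 0.13 with Fgg). Cfb and C2 are neighbours with 86 bases between them on the same strand and had an r of 0.72, while F11 and its neighbour Klkb1 had 0.07 and F7 and F10 had 0.14. C3 and F5, both long transcripts, were at 0.97, and C8g and F5 at -0.97.

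Other genes of the same pathways were taken as a list of 65, of which 47 were expressed enough to be tested. In old liver 1 of these 47 rose and 0 fell over the day (limma). At an unadjusted p under 0.05 there were 11 (23.4%), against 11.6% of all tested genes, and the median difference was 0.06. The gene that rose was Serpine2, protease nexin-1, an inhibitor of thrombin and plasminogen activators, at 17.9 ± 6.15 scaled TPM in old and 6.72 ± 2.94 in young livers (SD, n = 12 each, log2 difference 1.40). The complement recognition chain C1qb, a macrophage product, was called with Serpine2 at ZT10, where 0.53% of all tested genes were called. Rhythms over both ages were called for 8 of the 47 (17.0%), against 23.9% of all tested genes. Among them were Tfpi2 (a protease inhibitor, amplitude 1.70, peak at ZT0.0845), S100a10 (a plasminogen receptor subunit, 1.504, ZT23.8), F3 (tissue factor, 1.02, ZT8.46) and Mcfd2 (part of the export receptor for factors V and VIII, 0.88, ZT19.7). Lman1, its partner in that receptor, was among them too (0.43, ZT14.9). Of these named genes, F3 had a peak within the span of the 7 rhythmic members, and the other named ones peaked outside it. The named genes are not all of the 8 called, and the peaks of the rest are not given here.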

How the data were processed

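Per the labels' protocols, mRNA was selected with oligo-dT from total RNA of frozen livers and sequenced from stranded libraries as single reads of 50 bases. HISAT2, StringTie and the genome build GRCm38 are named in the submitters' processing notes, and their versions and settings are not given in the sources used here. The authors deposited 1 table per library with coverage, FPKM and TPM per gene. TPM was the unit analysed; the deposited FPKM values entered an alternative. The ratio of deposited coverage (signal) to FPKM gave each library's mapped bases and so its reads of 50 bases, 8.70 to 13.7 M per library. Read counts were not used here, so no counting interval is given.

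TPM was divided by median-of-ratios factors over 13270 genes above 0 in all 24 libraries. Genes with a mean deposited TPM of at least 1 were kept (12261), and log2(scaled TPM + 0.5) was tested in limma 3.58.1 (R 4.3.3) with trended empirical Bayes variances. Fold changes on this scale understate changes of low genes. A model of 12 groups (12 residual degrees of freedom) gave age differences over the day, at each time and their variation over times. Rhythms came from a second model with a 24 h cosine and sine for each age, which left 18 residual degrees of freedom. All p-values were two-sided and adjusted by Benjamini-Hochberg over all tested genes. The code was tested on simulated data.

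Values in every library are given for the members rhythmic over both ages and for the most abundant member of each role. Members and lists were chosen with earlier results of these data known. Of 157 list entries besides the members, 154 matched by name, 2 by GENCODE symbol and 1 not. Transcript length is that of the transcript with the longest coding sequence in GENCODE, a definition chosen after values were seen. Promoter windows came from RefSeq, GRCm38.p6. Alternatives were unscaled TPM, FPKM, quantile normalization, pseudocounts of 0.1 and 1, no filter, a filter at 5 TPM, replicate number as a block, each library left out, old ZT14 replicate 1 with young ZT18 replicate 2 left out, and ZT10 left out. Tables were handled in pandas 2.3.3 and numpy 2.4.6 under Python 3.11.15, and figures drawn in matplotlib 3.10.9.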

Additional observations from a re-analysis of the deposited data

How the results depend on the processing

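With replicate number as a block, limma called 1 member lower in old liver (F11, adjusted p = 0.0479), 1 at a single time (Fgg at ZT10, adjusted p = 0.0479), 7 rhythmic in young liver and 15 (39.5%) rhythmic over both ages. In that fit 1.08% of all tested genes were lower in old, 1.14% differed at ZT10, 15.9% were rhythmic in young and 30.1% over both ages. The 15 included the 7 members called without the block, Klkb1, and the complement members C3, C4b, Masp1, Masp2, C9, Mbl1 and C1ra (adjusted p = 0.0243 to 0.0449). Whether the number pairs libraries was not established. The block assumes 1 replicate difference for all groups, while the relation to transcript length ran the other way in young ZT10. Deviations correlated above 0.1 in 52 of 66 pairs of groups (0 of 11 with young ZT10). By the same deviations, 22 of 24 libraries correlated better with their own number. The 2 libraries of a group mirror each other and always give the same outcome, so these libraries do not count separately. With unscaled TPM, 3 members were rhythmic in old and 5 in young liver, against 7.78% and 7.81% of all genes. With 1 library left out, the count was 0 to 1 for members lower in old, 2 to 5 for members rhythmic in old, 2 to 5 in young and 7 to 10 over both ages. Fgg's age difference was -0.011 without the ZT10 libraries, and that of Serpinc1 ran from -0.056 to 0.10 with 1 library left out. The cause was not tested. Members higher by sign numbered 34 with unscaled TPM, where the median difference of all tested genes lay at 0.09. They numbered 29 with quantile normalization (median of all tested genes -0.007) and 20 to 27 with 1 library left out. Of 306 recomputed counts of members, 294 were within 1.5 times the reported count and 12 were not, though a count does not say which members were called. Several reported counts were 0, so many of these comparisons set 0 against 0, and most settings left out 1 library only. Of 1253 recomputed values of single members, 1223 kept direction and side of the threshold, 23 lost a call, 3 gained one and 4 changed sign. Many of these values were not calls to begin with. There were no age calls to lose, so all 23 losses could only fall on rhythm calls, and they were mostly within 1 age. The totals therefore do not measure how steady the calls were. With 2 libraries per age and time, single-time intervals are wide, and reads per gene are not known.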
